A study of Mus musculus with 12 samples.

Results

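The 34 genes described here cover the making, uptake, storage and release of cholesterol and its sensing by the SREBP and LXR transcription factors. They were taken by symbol from a gene table of 56941 genes, and all 34 passed the expression filter that left 18657 genes for testing. RNA had been sequenced from CD8+ T cells of Panc02 tumours, grown from a mouse pancreatic tumour line, in wild type C57BL/6J mice. The 4 groups of 3 libraries were asGM1-positive cells under anti-PD-1 antibody, asGM1-negative cells under anti-PD-1 antibody, asGM1-positive cells under isotype control antibody and asGM1-negative cells under isotype control antibody. All were sorted as DAPI-negative CD45.2+ CD8+ cells and split by asGM1, the surface glycolipid asialo-GM1. A CD3 gate, the age of the mice, the dose of antibody and the use of separate mice for replicates were not given, so p-values measure only the spread between these libraries.

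Cells make cholesterol from acetyl-CoA through mevalonate and isoprenoids (the mevalonate arm), then through squalene and lanosterol (the sterol arm). When membrane sterol is low, SCAP escorts SREBP2 to the Golgi for cleavage, and the released factor switches on the enzyme genes, and INSIG proteins hold SCAP back when sterol is plentiful. Oxysterols made from surplus sterol activate the LXR receptors, which raise the exporters ABCA1 and ABCG1 and MYLIP, a ubiquitin ligase that removes lipoprotein receptors. When T cells are activated and divide, SREBP2 activity is known to go up and LXR activity down.

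Promoter windows of 250 bases before to 50 bases after an annotated start were at hand for 28 of the 34 genes (RefSeq, build GRCm38.p6), and none is shown for Fdps, Fdft1, Sqle, Abcg1, Npc1 and Stard4. The 250 bases before the start are shown for the genes on which the results turn, 5′ to 3′ on the gene's strand, with matches in capitals. The first 3 belong to enzyme genes, and the last 2 were the windows with an LXR element. Capitals mark the sterol regulatory element TCACNCCAC, the NF-Y box CCAAT, in capitals on either strand, and the DR4 LXR element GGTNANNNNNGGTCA.
Hmgcs1 (chr13:119690101-119690350, plus strand): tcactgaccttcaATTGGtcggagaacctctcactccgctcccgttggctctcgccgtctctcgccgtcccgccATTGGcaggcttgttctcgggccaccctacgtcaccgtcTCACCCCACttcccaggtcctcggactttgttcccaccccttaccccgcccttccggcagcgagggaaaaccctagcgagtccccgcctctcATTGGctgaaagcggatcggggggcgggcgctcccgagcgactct
Idi1 (chr13:8885356-8885605, plus strand): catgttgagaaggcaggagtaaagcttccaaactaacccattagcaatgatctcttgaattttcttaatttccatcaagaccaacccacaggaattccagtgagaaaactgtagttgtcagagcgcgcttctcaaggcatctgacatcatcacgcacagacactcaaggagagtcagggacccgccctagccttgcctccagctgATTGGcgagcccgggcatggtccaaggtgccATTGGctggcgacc
Cyp51 (chr5:4104698-4104947, minus strand): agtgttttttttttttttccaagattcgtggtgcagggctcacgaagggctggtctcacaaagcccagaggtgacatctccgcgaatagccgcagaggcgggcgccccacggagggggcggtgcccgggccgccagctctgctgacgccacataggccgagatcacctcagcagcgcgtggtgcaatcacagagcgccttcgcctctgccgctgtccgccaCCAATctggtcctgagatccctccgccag
Abca1 (chr4:53159896-53160145, minus strand): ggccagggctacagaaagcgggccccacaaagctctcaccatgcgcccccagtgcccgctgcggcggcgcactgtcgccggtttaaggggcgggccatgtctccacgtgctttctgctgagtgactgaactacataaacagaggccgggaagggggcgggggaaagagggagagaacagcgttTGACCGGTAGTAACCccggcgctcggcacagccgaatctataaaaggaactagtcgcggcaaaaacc
Srebf1 (chr11:60210472-60210721, minus strand): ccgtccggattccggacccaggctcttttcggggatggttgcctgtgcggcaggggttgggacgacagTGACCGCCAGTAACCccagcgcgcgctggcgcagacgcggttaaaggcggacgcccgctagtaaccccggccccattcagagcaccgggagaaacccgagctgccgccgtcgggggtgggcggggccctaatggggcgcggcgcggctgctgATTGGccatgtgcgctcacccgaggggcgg
Both strands were searched, and no matches of different motifs overlapped. The sterol element as spelled matched 1 of 28 genes, Hmgcs1 at positions -137 to -129 from the start, against 1.44% of 27025 genes in the table. CCAAT occurred in 23 of 28 genes and in 17 of the 18 SREBP2-driven genes with a window, against 41.1% of all genes, where Acat2 was the one without it. It was also in genes that did not pass the treatment tests below, such as Ggps1 and Ebp, and in Mylip. All genes here include ones not expressed enough to be tested, whereas all 34 passed the expression filter. The DR4 element matched Abca1 at -67 to -53 and the third Srebf1 window at -182 to -168, against 0.226% of all genes. A match describes letters and is not a binding site.

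Libraries held 58.1 to 73.2 M counts, so that 3 counts, the limit that a count of 0 allows, stood at 0.0406 to 0.0524 CPM (counts scaled to the size of the library). Cd3e and Cd8a, listed here as CD8+ T cell markers, were abundant in every library, at 1018 to 1300 CPM for Cd3e and 1590 to 2581 CPM for Cd8a. Both anti-PD-1 libraries numbered 2 differed from their group in heat shock RNA (the chaperone gene Hspa1a was at 146 to 151 CPM, against 22.5 to 32.6 CPM in the other 4 anti-PD-1 libraries), and counts of calls are given with and without them. Heat shock genes moved with treatment. Their summed level was 1894 to 2346 CPM in asGM1-positive and 1849 to 2353 CPM in asGM1-negative cells under anti-PD-1, against 3123 to 3518 CPM in asGM1-positive and 2584 to 3223 CPM in asGM1-negative cells under isotype. Of 5 heat shock genes, 2 were lower with anti-PD-1 in asGM1-positive cells (3.01% of all tested genes were). None of the 5 passed in asGM1-negative cells, where 3 had an unadjusted p under 0.05, as did 4269 of the 18657 tested genes. The part of heat shock genes in the results was not tested.

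Under anti-PD-1, RNA of 13 of the 20 cholesterol-making enzymes was lower in each population, and none was higher. RNA of the 3 LXR efflux genes was higher in asGM1-negative cells and that of 1 of them, Abcg1, in asGM1-positive cells. In asGM1-positive cells 16 of the 34 genes were lower (background 3.01% of tested genes) and 1 was higher (background 3.72%). In asGM1-negative cells 16 were lower (background 4.45%) and 3 were higher (background 4.11%). Calls are at an adjusted p under 0.05 from edgeR's quasi-likelihood F test on all 12 libraries. The 23 SREBP2-driven genes, 20 enzymes plus Stard4, Npc1 and Npc2, had a median log2 fold change of -0.73 in asGM1-positive and -0.64 in asGM1-negative cells, while the median of all genes was -0.01 in each. By the edgeR test, 14 of the 23 were lower and none higher in each population. Groups that do not overlap were common among all tested genes: 12.2% were lower and 11.8% higher without overlap in asGM1-positive cells, and 15.8% lower and 14.5% higher in asGM1-negative cells. By this order alone, 17 of the 23 were lower and none higher in asGM1-positive cells, and 16 were lower and 1, Npc2, higher in asGM1-negative cells. In bulk RNA, fewer cells expressing a gene and less RNA per cell cannot be told apart.

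Without the anti-PD-1 libraries numbered 2, 12 genes were lower (background 1.56%) and none higher (background 1.53%) in asGM1-positive cells. In asGM1-negative cells 10 were then lower (background 2.13%) and 2 higher (background 1.92%). The 19 calls in asGM1-negative cells rested on its 6 libraries: 10, 12 and 11 passed without anti-PD-1 library 1, 2 or 3 (4.12%, 4.87% and 3.78% of all tested genes), and 12 without isotype library 2 or 3 (5.61% and 6.16%). Averaged over both populations, 19 genes were lower (background 9.02%) and 3 higher (background 9.12%). With the paired libraries summed, an analysis added after the data were seen, 16 genes were lower (background 3.23%) and 2 higher (background 3.5%).

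Some of the genes listed as markers of other cells moved with treatment too. Of all tested genes, 3.72% were higher and 3.01% lower with anti-PD-1 in asGM1-positive cells. In asGM1-negative cells 4.11% were higher and 4.45% lower. The 5 CD4 and regulatory T cell genes summed to 1032 to 1227 CPM with anti-PD-1 against 433 to 712 CPM with isotype in asGM1-positive cells, and 1255 to 1382 CPM with anti-PD-1 against 519 to 762 CPM with isotype in asGM1-negative cells. Of these 5, Ctla4, a checkpoint receptor gene, was higher in each population (1.31 ± 0.26 in asGM1-positive and 1.53 ± 0.26 in asGM1-negative cells on the log2 scale, edgeR adjusted p = 0.0120 and 0.00496), and Cd4, Foxp3 and the other 2 did not pass. The 4 neutrophil genes summed to 0.504 to 2.49 CPM with anti-PD-1 against 3.37 to 7.29 CPM with isotype in asGM1-positive cells, and 0.2601 to 0.437 CPM with anti-PD-1 against 3.25 to 3.62 CPM with isotype in asGM1-negative cells. S100a9 was lower in each population, and Csf3r in asGM1-negative cells. Of the 5 conventional dendritic cell genes, Zbtb46 was lower in each population and Xcr1 higher in asGM1-negative cells. Among 13 macrophage genes, asGM1-positive cells had 2 higher (background 3.72%) and 1 lower (background 3.01%) with anti-PD-1. In asGM1-negative cells 1 of the 13 was higher (background 4.11%). These genes, and Flt3, Clec9a and Cd79b, were named after their values were seen. Their part in the results was not tested.

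**Figure D1:**
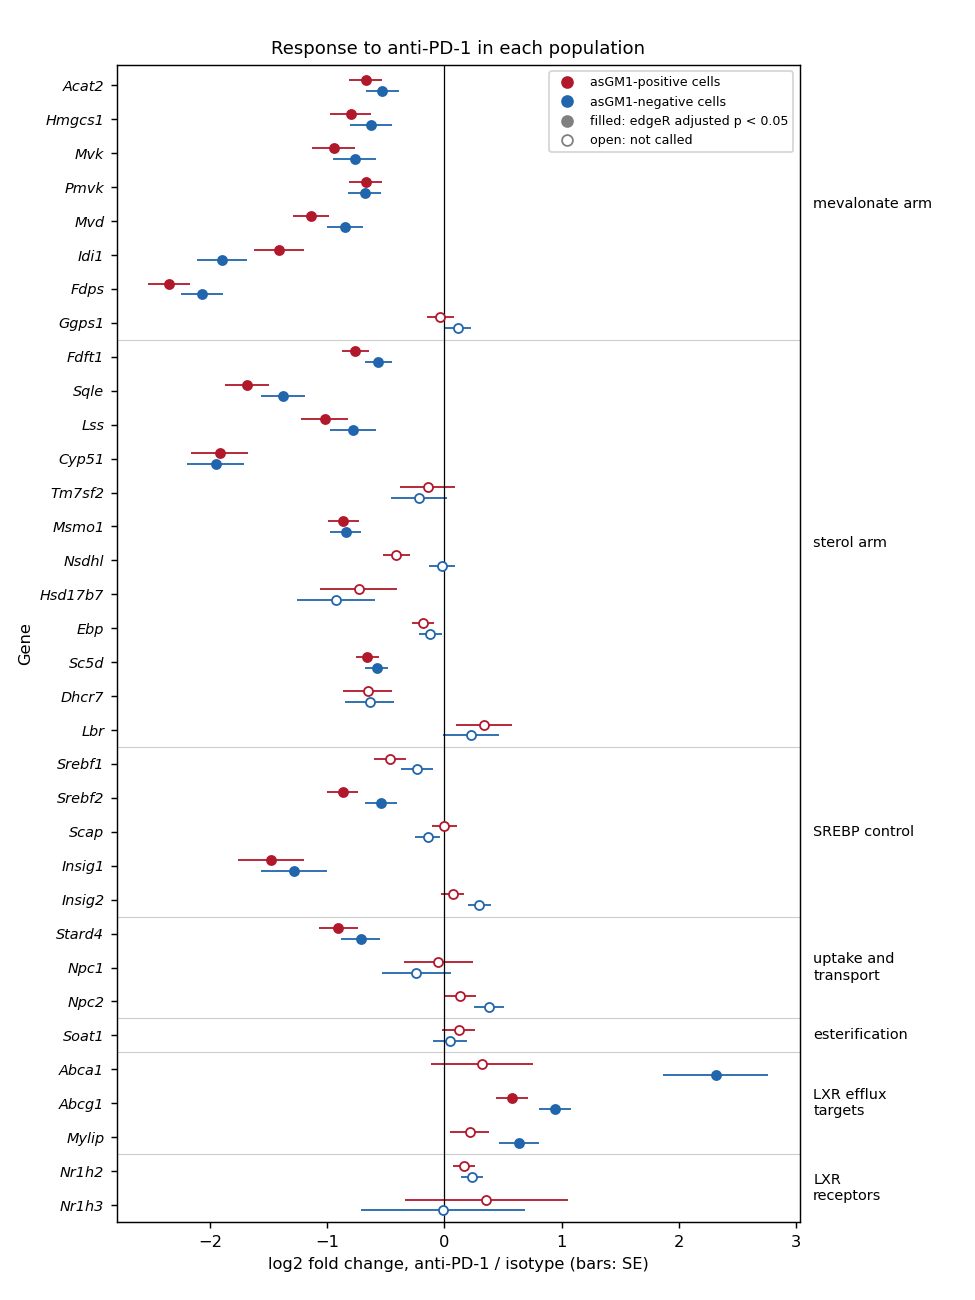
Log2 fold change of anti-PD-1 over isotype for the 34 genes by role, in asGM1-positive cells (red, upper point of each pair) and asGM1-negative cells (blue, lower point), with standard errors. Enzyme genes from Acat2 to Fdps lie left of 0 in both populations, and Abca1 lies far right only for asGM1-negative cells (2.31 against 0.32), a difference that did not pass the interaction test (adjusted p = 0.494).

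In the mevalonate arm, 7 of 8 genes were lower in each population, and Ggps1 was the exception. Fdps, which makes farnesyl diphosphate, showed 18.00, 25.2 and 24.5 CPM in anti-PD-1 libraries against 96.3, 124 and 125 CPM in isotype libraries of asGM1-positive cells. In asGM1-negative cells it showed 15.6, 21.97 and 22.9 CPM in anti-PD-1 libraries against 75.4, 86.5 and 91.6 CPM in isotype libraries. All 6 anti-PD-1 libraries lay below all 6 isotype libraries. The log2 fold change was -2.35 ± 0.18 (SE) in asGM1-positive cells (adjusted p = 3.65e-05, edgeR) and -2.07 ± 0.18 in asGM1-negative cells (adjusted p = 0.000174). The Fdps exons overlap the annotated gene Gm43738 on the same strand, so its counts may hold reads of both.

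Idi1, the isomerase that makes dimethylallyl diphosphate, had 14.4, 14.4 and 15.99 CPM in anti-PD-1 libraries against 33.3, 35.3 and 50.2 CPM in isotype libraries of asGM1-positive cells. Its level in asGM1-negative cells was 11.4, 7.57 and 10.2 CPM in anti-PD-1 libraries against 30.4, 32.4 and 45.8 CPM in isotype libraries, so neither pair of groups overlapped. It changed by -1.41 ± 0.21 in asGM1-positive (edgeR adjusted p = 0.00223) and -1.90 ± 0.21 in asGM1-negative cells (adjusted p = 0.000580) on the log2 scale. Hmgcs1, the synthase that makes HMG-CoA and the gene with the sterol element above, had 48.1, 49.5 and 35.6 CPM in anti-PD-1 libraries against 66.7, 72.5 and 92.7 CPM in isotype libraries of asGM1-positive cells. For asGM1-negative cells it had 45.05, 42.7 and 40.2 CPM in anti-PD-1 libraries against 55.1, 60.5 and 82.02 CPM in isotype libraries, and these groups did not overlap in either population. Its fall was smaller, -0.80 ± 0.18 (edgeR adjusted p = 0.0195) and -0.63 ± 0.18 (adjusted p = 0.0482) in asGM1-positive and asGM1-negative cells, and the call in asGM1-negative cells held in only 2 of 12 fits that each left out 1 library. The call in asGM1-positive cells held in 10 of 12 and was lost with only the libraries compared. Both Hmgcs1 calls were lost without the anti-PD-1 libraries numbered 2.

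Acat2, the thiolase at the entry of the pathway, and the kinases Mvk and Pmvk and the decarboxylase Mvd, which act on mevalonate, were lower as well. The Acat2 call in asGM1-negative cells held in 5 of 12 fits that each left out 1 library and was lost with only the libraries compared (adjusted p = 0.0589), and the Mvk call there held in 7 of 12. The Pmvk call held in 10 of 12 in each population, as did the Acat2 call in asGM1-positive cells. With only the libraries compared, the Pmvk call in asGM1-positive cells was lost. Without the anti-PD-1 libraries numbered 2, that call and the Acat2 call in asGM1-negative cells were lost. Log2 fold changes of Acat2, Mvk, Pmvk and Mvd in asGM1-positive cells were -0.67, -0.94, -0.67 and -1.14. In asGM1-negative cells they were -0.53, -0.76, -0.68 and -0.84. Ggps1, which leads from farnesyl to geranylgeranyl diphosphate, stood at 38.9 to 41.4 CPM under anti-PD-1 and 35.3 to 47.8 CPM under isotype in asGM1-positive cells, and its fold change did not pass (adjusted p = 0.916 and 0.625).

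In the sterol arm, 6 of 12 genes were lower in each population: Fdft1, Sqle, Lss, Cyp51, Msmo1 and Sc5d. Cyp51, the lanosterol demethylase, showed 27.5, 26.1 and 25.9 CPM in anti-PD-1 libraries against 89.6, 83.2 and 127 CPM in isotype libraries of asGM1-positive cells. In asGM1-negative cells the values were 20.3, 14.2 and 24.6 CPM in anti-PD-1 libraries against 60.6, 64.7 and 103 CPM in isotype libraries. The highest anti-PD-1 library of either population, at 27.5 CPM, was below the lowest isotype library, at 60.6 CPM. It changed by -1.92 ± 0.24 (edgeR adjusted p = 0.000780) in asGM1-positive and -1.95 ± 0.24 (adjusted p = 0.000983) in asGM1-negative cells.

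Sqle, the squalene epoxidase and a controlled step of the arm, had 18.9, 20.9 and 16.6 CPM in anti-PD-1 libraries against 57.9, 51.7 and 71.4 CPM in isotype libraries of asGM1-positive cells. It had 16.7, 20.5 and 18.5 CPM in anti-PD-1 libraries against 39.8, 42.2 and 62.8 CPM in isotype libraries in asGM1-negative cells, again without overlap. The log2 fold changes were -1.68 ± 0.19 (edgeR adjusted p = 0.000330) in asGM1-positive and -1.38 ± 0.19 (adjusted p = 0.00152) in asGM1-negative cells. Fdft1 (squalene synthase), Lss (lanosterol synthase), Msmo1 (sterol 4-methyl oxidase) and Sc5d (lathosterol oxidase) fell by less. The Lss call in asGM1-negative cells held in 8 of 12 fits that each left out 1 library and was lost with only the libraries compared (adjusted p = 0.0569). It was also lost without the anti-PD-1 libraries numbered 2. The Fdft1 call in asGM1-negative cells held in 10 of 12 fits. Log2 fold changes of Fdft1, Lss, Msmo1 and Sc5d in asGM1-positive cells were -0.76, -1.02, -0.86 and -0.66. In asGM1-negative cells they were -0.57, -0.78, -0.84 and -0.58.

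The remaining 6 genes act on late sterol intermediates. Dhcr7, the last reductase of one branch, had log2 fold changes of -0.65 in asGM1-positive and -0.64 in asGM1-negative cells. Hsd17b7 had -0.73 and -0.92. In the main edgeR fit both passed only in the mean of the populations (adjusted p = 0.0107 and 0.0290), and neither passed with pairs summed. The Hsd17b7 call in the mean held in 5 of 12 fits that each left out 1 library. With only the libraries compared, edgeR called Hsd17b7 in asGM1-negative cells (adjusted p = 0.0373). Without isotype asGM1-negative library 3 it called Dhcr7 in asGM1-positive cells (0.0299). DESeq2 called Dhcr7 in each population (adjusted p = 0.0251 in asGM1-positive and 0.0218 in asGM1-negative cells) and Hsd17b7 in asGM1-negative cells (0.0348). Nsdhl, a decarboxylating sterol dehydrogenase, Ebp, a sterol isomerase, and Tm7sf2 and Lbr, both sterol reductases, did not pass in either population or the mean in the edgeR test. Nsdhl was called lower in asGM1-positive cells by DESeq2 (adjusted p = 0.00582), with RLE scaling (0.0494) and without isotype library 3 (0.0465), and in the mean by DESeq2 (0.0329). Lbr passed in the mean without isotype asGM1-negative library 3 (0.0464). Lbr, which also anchors chromatin to the nuclear envelope, had values above 0 (0.33 and 0.22 in asGM1-positive and asGM1-negative cells), and the other 3 below. Tm7sf2 exons overlap Vps51 on the same strand.

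Of the 5 genes that control SREBP, Srebf2 and Insig1 were lower in both populations, and in the edgeR test Srebf1 was lower only in the mean of the populations. Srebf2, which encodes SREBP2 and is itself an SREBP target, had 112, 146 and 123 CPM in anti-PD-1 libraries against 211, 201 and 284 CPM in isotype libraries of asGM1-positive cells. Its counterpart values in asGM1-negative cells were 128, 131 and 137 CPM in anti-PD-1 libraries against 189, 186 and 201 CPM in isotype libraries. Neither population's groups overlapped. It changed by -0.87 ± 0.13 (edgeR adjusted p = 0.00260) in asGM1-positive and -0.54 ± 0.13 (adjusted p = 0.0271) in asGM1-negative cells, where the call was lost without any one of the 6 asGM1-negative libraries. Insig1, the sterol-regulated retention factor, had 8.49, 8.78 and 7.53 CPM in anti-PD-1 libraries against 15.8, 27.2 and 26.2 CPM in isotype libraries of asGM1-positive cells. In asGM1-negative cells it had 7.26, 7.83 and 11.6 CPM in anti-PD-1 libraries against 13.8, 23.3 and 27.8 CPM in isotype libraries, and the isotype libraries were widely spread. Its log2 fold change was -1.48 ± 0.28 (edgeR adjusted p = 0.00945) in asGM1-positive and -1.28 ± 0.28 (adjusted p = 0.0170) in asGM1-negative cells. The Insig1 call in asGM1-negative cells held in 8 of 12 fits that each left out 1 library. In both populations it was lost without the anti-PD-1 libraries numbered 2.

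Srebf1, which encodes the SREBP1 forms and is an LXR target, changed by -0.35 ± 0.10 in the mean of both populations (edgeR adjusted p = 0.0269; 0.129 with pairs summed), and DESeq2 called it lower in asGM1-positive cells as well (adjusted p = 0.0188). Scap, the escort protein gene, was at 89.7 to 101 CPM with anti-PD-1 and 86.1 to 108 CPM with isotype in asGM1-positive cells and did not pass. Insig2, the INSIG gene that does not depend on SREBP, had log2 fold changes of 0.07 and 0.30 in asGM1-positive and asGM1-negative cells (edgeR adjusted p = 0.768 and 0.0853). DESeq2 called it higher in asGM1-negative cells (adjusted p = 0.0387), and edgeR did in the mean without anti-PD-1 asGM1-positive library 3 (0.0474).

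**Figure D2:**
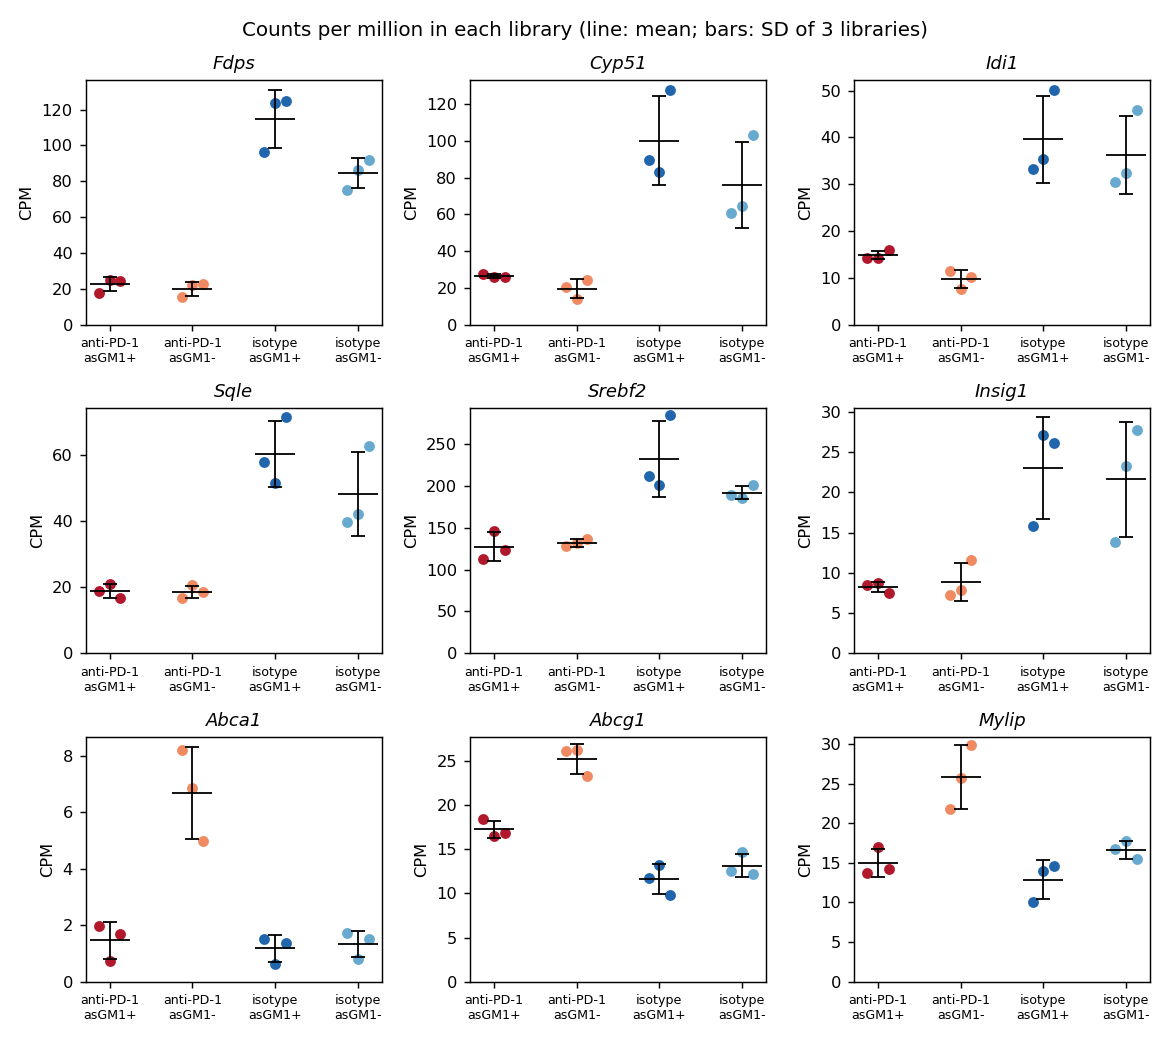
CPM of 9 genes in each of the 12 libraries, by group, with the mean and SD of 3 libraries. Fdps, Cyp51, Idi1 and Sqle are lower in both anti-PD-1 groups, and Abca1 is at 4.97 to 8.20 CPM in the 3 anti-PD-1 asGM1-negative libraries and at 0.625 to 1.99 CPM in the other 9.

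Among the uptake and transport genes, Stard4, a carrier of cholesterol through the cytosol, was lower. It had 25.95, 22.2 and 30.8 CPM in anti-PD-1 libraries against 47.8, 58.2 and 41.9 CPM in isotype libraries of asGM1-positive cells. In asGM1-negative cells it had 27.6, 24.8 and 26.3 CPM in anti-PD-1 libraries against 41.1, 51.7 and 36.2 CPM in isotype libraries, and the groups of neither population overlapped. The log2 fold changes were -0.90 ± 0.17 (edgeR adjusted p = 0.00761) and -0.71 ± 0.17 (adjusted p = 0.0222) in asGM1-positive and asGM1-negative cells. The Stard4 call in asGM1-negative cells held in 7 of 12 fits that each left out 1 library. In both populations it was lost without the anti-PD-1 libraries numbered 2. Npc1 and Npc2, the pair that moves lipoprotein cholesterol out of the lysosome, did not pass in the edgeR test, with log2 fold changes in asGM1-negative cells of -0.24 and 0.38. DESeq2 called Npc2 higher in asGM1-negative cells (adjusted p = 0.0429) and in the mean (0.0433), and edgeR did in the mean without isotype asGM1-positive library 2 (0.0495). Soat1, the enzyme that stores cholesterol as esters, was at 72.4 to 91.1 CPM with anti-PD-1 and 63.7 to 86.5 CPM with isotype in asGM1-positive cells and did not pass (edgeR adjusted p = 0.713 there and 0.889 in asGM1-negative cells).

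The LXR efflux genes went the other way. Abca1, the exporter that loads cholesterol onto lipid-poor apolipoprotein, had 1.99, 0.733 and 1.699 CPM in anti-PD-1 libraries against 1.53, 0.625 and 1.39 CPM in isotype libraries of asGM1-positive cells. Its values in asGM1-negative cells were 8.202, 6.86 and 4.97 CPM in anti-PD-1 libraries against 1.71, 0.809 and 1.503 CPM in isotype libraries. The 3 anti-PD-1 asGM1-negative libraries lay above every other library, and in asGM1-positive cells the groups overlapped. The log2 fold change was 0.32 ± 0.44 in asGM1-positive cells (adjusted p = 0.758, edgeR) and 2.31 ± 0.45 in asGM1-negative cells (adjusted p = 0.00916), and 2.29 (adjusted p = 0.0225) without the anti-PD-1 libraries numbered 2.

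Abcg1, which exports cholesterol to mature lipoprotein particles, had 18.4, 16.5 and 16.8 CPM in anti-PD-1 libraries against 11.7, 13.2 and 9.803 CPM in isotype libraries of asGM1-positive cells. In asGM1-negative cells it had 26.1, 26.2 and 23.3 CPM in anti-PD-1 libraries against 12.5, 14.6 and 12.2 CPM in isotype libraries, and the groups of neither population overlapped. It rose by 0.57 ± 0.14 (edgeR adjusted p = 0.0292) in asGM1-positive and 0.94 ± 0.14 (adjusted p = 0.00222) in asGM1-negative cells. The call in asGM1-positive cells was lost without the anti-PD-1 libraries numbered 2, without any single anti-PD-1 library of that population, and without its isotype library 1 or 3.

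Mylip had 13.7, 16.97 and 14.2 CPM in anti-PD-1 libraries against 10.1, 14.02 and 14.6 CPM in isotype libraries of asGM1-positive cells, and these overlapped. For asGM1-negative cells it had 21.8, 25.7 and 29.9 CPM in anti-PD-1 libraries against 16.7, 17.8 and 15.5 CPM in isotype libraries, which did not overlap. Its log2 fold change was 0.21 ± 0.17 (edgeR adjusted p = 0.536) in asGM1-positive and 0.63 ± 0.17 (adjusted p = 0.0398) in asGM1-negative cells, where the call was lost without the anti-PD-1 libraries numbered 2 and without 7 of the 12 libraries in turn. The receptor genes themselves did not pass in the edgeR test: Nr1h2 (LXR beta) had log2 fold changes of 0.17 and 0.23 in asGM1-positive and asGM1-negative cells, and Nr1h3 (LXR alpha) was low, at 0.219 to 1.76 CPM over the 12 libraries. Nr1h2 was called higher in the mean of the populations by DESeq2 (adjusted p = 0.0320) and with a block of the number over all groups (0.0358).

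Read per library, the mean log2(CPM + 1) of the 23 SREBP2-driven genes was 4.82, 4.86 and 4.83 in anti-PD-1 asGM1-positive and 4.68, 4.72 and 4.74 in anti-PD-1 asGM1-negative libraries. The isotype values were 5.49, 5.54 and 5.67 in asGM1-positive and 5.22, 5.32 and 5.50 in asGM1-negative libraries. For the 3 LXR genes it was 3.24, 3.03 and 3.17 in anti-PD-1 asGM1-positive and 4.16, 4.16 and 4.04 in anti-PD-1 asGM1-negative libraries, against 2.83, 2.81 and 2.88 in isotype asGM1-positive and 3.11, 3.02 and 3.03 in isotype asGM1-negative libraries. The difference, SREBP2-driven minus LXR, was 1.58, 1.83 and 1.65 in anti-PD-1 asGM1-positive and 0.52, 0.56 and 0.70 in anti-PD-1 asGM1-negative libraries. It was 2.66, 2.73 and 2.79 in isotype asGM1-positive and 2.11, 2.31 and 2.47 in isotype asGM1-negative libraries. No group's range overlapped another's, and anti-PD-1 asGM1-negative libraries were lowest. These are descriptions without a test, since the gene sets were chosen with results known.

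**Figure D3:**
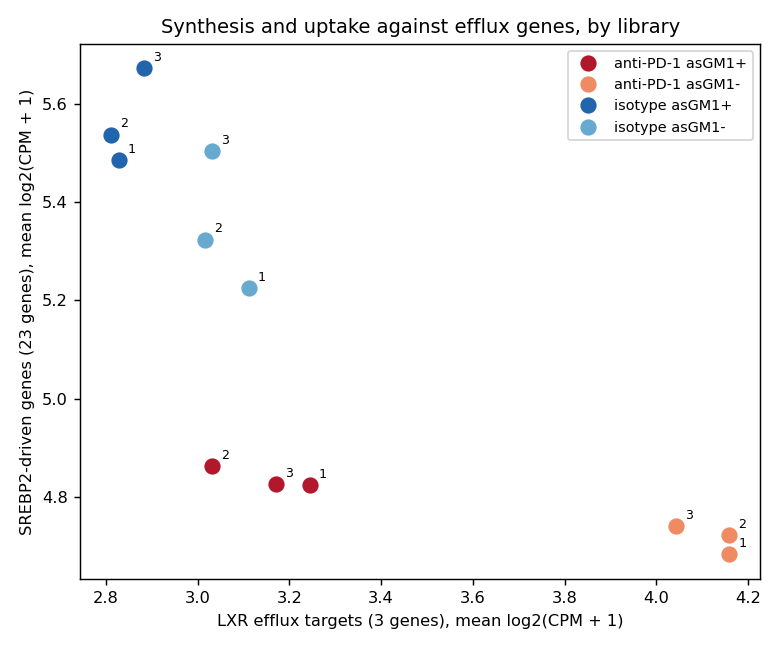
Mean log2(CPM + 1) of the 23 SREBP2-driven genes against that of the 3 LXR efflux genes, 1 point per library with its replicate number. Anti-PD-1 libraries lie low on the vertical axis, and anti-PD-1 asGM1-negative libraries (4.04 to 4.16) lie apart on the horizontal axis from the other 9 (2.81 to 3.24).

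Whether the populations differed in their response was tested by the interaction, the response of asGM1-positive minus that of asGM1-negative cells. None of the 34 genes passed (background 0%). An unadjusted p under 0.05 was found for 2 of the 34, Abca1 and Nsdhl, and for 1329 of the 18657 tested genes. DESeq2 and limma voom also called 0 of the 34 (background 0.729% and 0%). Abca1 had an interaction of -1.99 ± 0.62 (edgeR adjusted p = 0.494), and -2.04 ± 0.45 (adjusted p = 0.103) with same-numbered libraries of a treatment as a block (background 0.0268%). The 3 LXR genes had interaction values of -1.99, -0.37 and -0.42 for Abca1, Abcg1 and Mylip, and the SREBP2-driven genes a median of -0.14.

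Cell cycle genes moved with treatment as well. With anti-PD-1, 9 of 12 cell cycle genes were lower in asGM1-negative cells (background 4.45%). None of 12 passed in asGM1-positive cells, where 2 had an unadjusted p under 0.05, as did 3916 of the 18657 tested genes. With anti-PD-1 the 12 genes summed to 2725 to 3052 CPM in asGM1-positive and 1592 to 1794 CPM in asGM1-negative cells. With isotype they summed to 2900 to 3619 CPM in asGM1-positive and 2505 to 3312 CPM in asGM1-negative cells. Mki67 did not pass in either population (adjusted p = 0.845 and 0.0734). No cell cycle gene had a passing interaction, though 9 of 12 had an unadjusted p under 0.05, as did 1329 of the 18657 tested genes. Between the populations under anti-PD-1, 10 of 12 cell cycle genes were higher in asGM1-positive cells (background 0.927%). The part of cell cycling in these results was not tested.

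Between the populations, asGM1-positive cells carried less Abca1 and Mylip RNA than asGM1-negative cells under anti-PD-1, and no enzyme gene passed there. Under anti-PD-1, 2 of 34 genes were lower (background 0.654%) and none higher (background 0.927%). Abca1 differed by -2.18 ± 0.45 (edgeR adjusted p = 0.0355) and Mylip by -0.79 ± 0.17 (adjusted p = 0.0437). Abcg1 was at -0.55 (adjusted p = 0.0816). The per-library values above do not overlap between the populations for any of the 3 genes (background 9.51% of tested genes lower without overlap). DESeq2 called Abcg1 as well (adjusted p = 0.00300). Both calls were lost without any one of the 6 anti-PD-1 libraries, Mylip's also without isotype asGM1-negative library 1, 2 or 3 or isotype asGM1-positive library 2, and both without the pair numbered 2 (adjusted p = 0.271 for Abca1 and 0.213 for Mylip).

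Under isotype, none of the 34 genes passed (background 1.31%). An unadjusted p under 0.05 was found for 6 of the 34 and for 2323 of the 18657 tested genes. The 6 were enzyme genes, all higher in asGM1-positive cells. limma voom called 0 (background 1.53%) and DESeq2 called 1, Mvk (background 4.28%). In the mean of both treatments, Mvk was higher (0.53 ± 0.13, edgeR adjusted p = 0.0474; background 1.55%) and Mylip lower (-0.58 ± 0.12, adjusted p = 0.0211; background 2.04%). The Mvk call held in 2 and the Mylip call in 6 of 12 fits that each left out 1 library.

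Same-numbered libraries of a treatment deviated together, so the fit with pairs as a block is given too. With it, 4 genes passed under anti-PD-1: Idi1 was higher (0.63 ± 0.12, edgeR adjusted p = 0.0245; background 2.75%), and Abca1, Abcg1 and Mylip were lower (adjusted p = 0.00813, 0.0253 and 0.0253; background 2.02%). Under isotype Fdps passed, higher in asGM1-positive cells (0.44 ± 0.07, adjusted p = 0.0169; background 1.83%). In the mean of both treatments 10 passed in the blocked fit: Mvk, Idi1, Fdps, Lss, Cyp51, Sc5d and Dhcr7 higher (log2 fold changes 0.24 to 0.53; background 4.43%) and Abca1, Abcg1 and Mylip lower (background 4.16%).

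**Figure D4:**
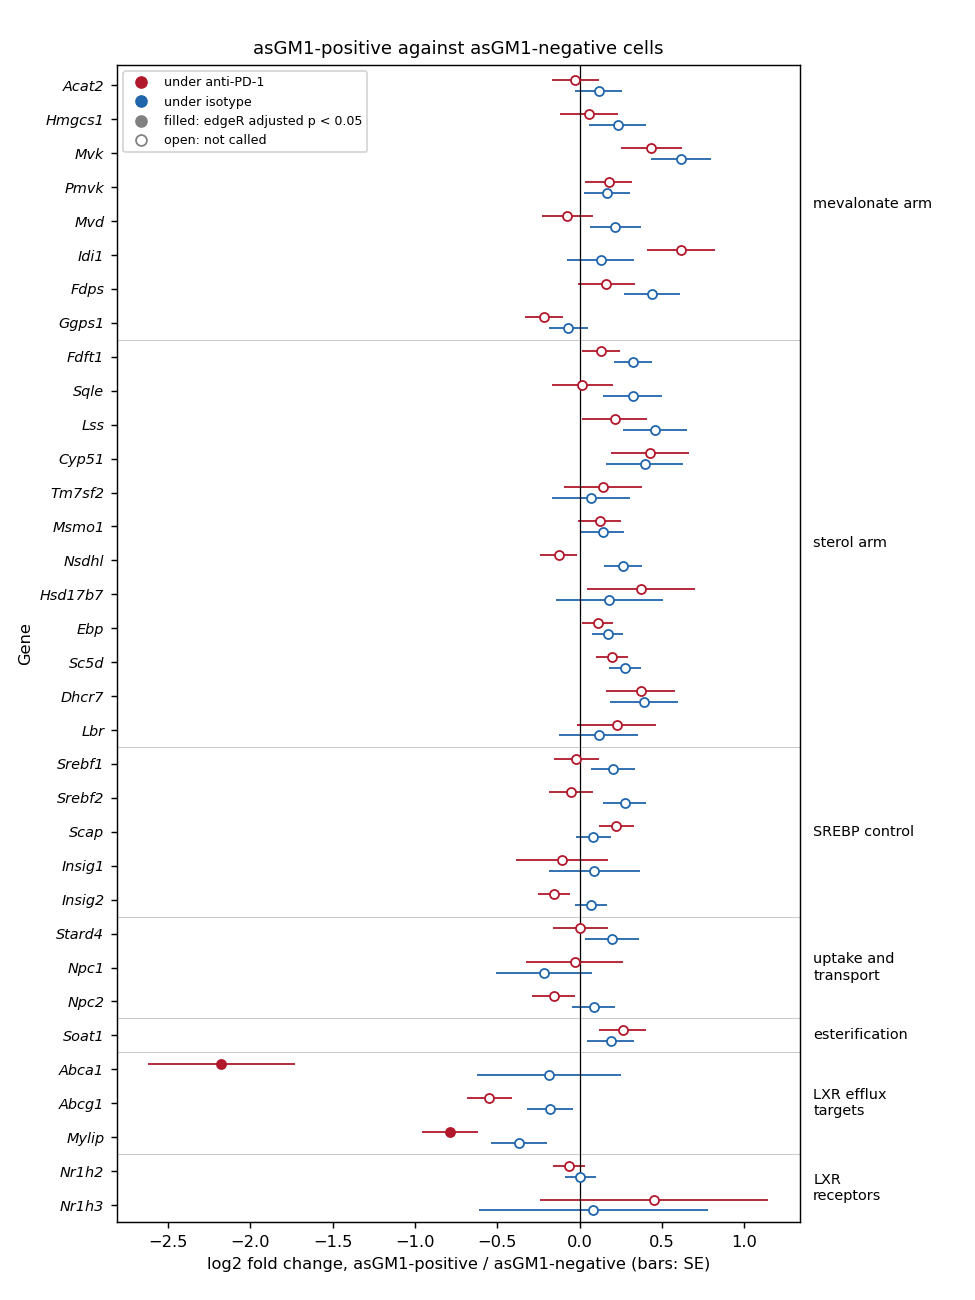
Log2 fold change of asGM1-positive over asGM1-negative cells for the 34 genes, under anti-PD-1 (red, upper point) and isotype (blue, lower point), with standard errors. Abca1 under anti-PD-1 lies at -2.18, while enzyme genes lie between -0.22 and 0.62.

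Markers of other cells differed between the same populations. Among the 18657 tested genes, 173 were higher and 122 lower in asGM1-positive cells under anti-PD-1. Under isotype 68 were higher and 176 lower. Of 13 macrophage genes, 6 were higher in asGM1-positive cells under anti-PD-1 and 8 under isotype, and none was lower. Their summed level was 144 to 243 CPM in asGM1-positive against 67.1 to 101 CPM in asGM1-negative cells under anti-PD-1, and 161 to 243 CPM in asGM1-positive against 64.8 to 73.02 CPM in asGM1-negative cells under isotype. Csf1r averaged 9.39 ± 1.82 CPM in asGM1-positive against 1.92 ± 1.29 CPM in asGM1-negative cells under anti-PD-1 (SD, n = 3 each). Of 8 plasmacytoid dendritic cell genes, 6 were lower in asGM1-positive cells under anti-PD-1 and 7 under isotype. Siglech was at 0 to 0.489 CPM in asGM1-positive against 25.1 to 34.8 CPM in asGM1-negative cells under anti-PD-1, and at 0 to 0.236 CPM in asGM1-positive against 46.2 to 71.3 CPM in asGM1-negative cells under isotype. The list's summed level ran 530.4 to 752 CPM in asGM1-positive against 573 to 664 CPM in asGM1-negative cells under anti-PD-1 and 557 to 612 CPM in asGM1-positive against 618 to 796 CPM in asGM1-negative cells under isotype. Of 5 conventional dendritic cell genes, 2 were lower in asGM1-positive cells under each antibody, Flt3 and Clec9a under anti-PD-1 and Flt3 and Zbtb46 under isotype. The 5 genes together summed to 2.69 to 4.43 CPM in asGM1-positive against 10.9 to 20.7 CPM in asGM1-negative cells under anti-PD-1, and 3.71 to 5.22 CPM in asGM1-positive against 15.6 to 19.2 CPM in asGM1-negative cells under isotype. Of the B cell genes, 2 of 4 were tested, and Cd79b was lower in asGM1-positive cells under isotype, while none passed under anti-PD-1. The B cell list summed to 1.32 to 2.42 CPM in asGM1-positive against 2.96 to 5.85 CPM in asGM1-negative cells under anti-PD-1, and 2.05 to 3.21 CPM in asGM1-positive against 6.29 to 7.16 CPM in asGM1-negative cells under isotype. Of 5 CD4 and regulatory T cell genes, Foxp3 was lower in asGM1-positive cells under each antibody. Of 5 NK cell genes, whose cells also carry asGM1, none passed between the populations. An unadjusted p under 0.05 occurred for 2 of them under each antibody, against 2116 of 18657 tested genes under anti-PD-1 and 2323 under isotype. The NK list summed to 112 to 236 CPM in asGM1-positive against 126 to 191 CPM in asGM1-negative cells under anti-PD-1 and 163 to 189.6 CPM in asGM1-positive against 148 to 194 CPM in asGM1-negative cells under isotype. The part of other cells in the Abca1, Abcg1 and Mylip differences was not tested.

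Beyond the 34 genes, 76 of 78 other genes of the pathway were tested. In the mean of both populations, 13 were lower (background 9.02%) and 12 higher (background 9.12%) with anti-PD-1. Lipogenic and sterol-linked SREBP genes made up most of the fall, with 10 of 16 lower and 1 higher. This mean counts both libraries of a pair as separate. With pairs summed, 3.23% of all tested genes were lower and 3.5% higher. Calls on these other pathway genes with pairs summed are not given. Fasn, the fatty acid synthase, averaged 34.5 ± 6.58 CPM with anti-PD-1 against 57.9 ± 5.53 CPM with isotype in asGM1-positive cells (SD, n = 3 each), and 28.7 ± 4.59 CPM with anti-PD-1 against 63.5 ± 4.69 CPM with isotype in asGM1-negative cells. Its log2 fold change was -0.75 ± 0.16 (edgeR adjusted p = 0.0149) and -1.14 ± 0.16 (adjusted p = 0.00164) in asGM1-positive and asGM1-negative cells.

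The desaturase genes Fads1 and Fads2 changed by -1.27 and -4.65 in asGM1-positive cells and by -1.15 and -2.13 in asGM1-negative cells, all past the threshold. Fads2 was low, at 0.0863 to 0.244 CPM with anti-PD-1 and 2.32 to 5.57 CPM with isotype in asGM1-positive cells. Tmem97, a sterol-regulated membrane protein gene, changed by -0.81 in asGM1-positive and -1.07 in asGM1-negative cells. Scd2 passed only in the mean of the populations (-0.68, adjusted p = 0.0114), and Acly, which supplies acetyl-CoA from citrate, did not pass (0.12, adjusted p = 0.607).

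Genes of ester storage went up, with 4 of 5 higher in the mean of the populations (background 9.12%). Plin2, which coats lipid droplets, averaged 151 ± 9.37 CPM with anti-PD-1 against 57.7 ± 11.04 CPM with isotype in asGM1-positive cells, and 183 ± 11.2 CPM with anti-PD-1 against 39.9 ± 3.904 CPM with isotype in asGM1-negative cells. It rose by 1.39 ± 0.13 and 2.20 ± 0.13 (edgeR adjusted p = 0.000105 and 1.78e-05) in asGM1-positive and asGM1-negative cells.

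Of 7 other LXR and lipoprotein genes tested, none was higher with anti-PD-1 in the mean of the populations (background 9.12%). The 1 lower gene (background 9.02%) was Pltp, a phospholipid transfer protein (-1.02 ± 0.19, edgeR adjusted p = 0.00338). Apoe, an LXR target that macrophages also express strongly, was higher in asGM1-positive cells under each antibody. It differed by 1.67 ± 0.23 under anti-PD-1 (edgeR adjusted p = 0.00833) and 2.42 ± 0.24 under isotype (adjusted p = 0.00112). Some macrophage genes were higher in asGM1-positive cells too, and the part of macrophages in the Apoe difference was not tested. Pltp was lower there (-2.17 under anti-PD-1 and -1.83 under isotype). Gramd1b, which moves cholesterol from the plasma membrane to the endoplasmic reticulum, was lower in asGM1-positive cells under isotype (-0.77 ± 0.10, adjusted p = 0.00483).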

How the data were processed

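Raw counts for the 12 libraries came as 1 table that the authors deposited, with whole numbers for 56941 genes. Extraction with TRIzol and library kits from the SMARTer ultra low input and TruSeq lines are named per the labels' protocols. HISAT2, StringTie and build mm39 are named per the submitters' processing notes. Versions, annotation, use of strand and how the counts were tallied are not given in the sources used here. In an annotation of build GRCm38, exons of 13 of the 34 genes overlapped another gene, 5 on the same strand, so those counts may hold reads of both. Use of strand is unknown, so this holds for overlaps on the opposite strand too, such as those of Cyp51, Fdft1, Hmgcs1, Idi1 and Lss.

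Counts were tested with edgeR 4.0.16 (limma 3.58.1, R 4.3.3): default expression filter by group, TMM scaling, 1 mean per group over 12 libraries, quasi-likelihood F test, Benjamini-Hochberg over 18657 genes, called at adjusted p under 0.05. Standard errors are absolute log2 fold changes over the square root of F, and CPM values are TMM-scaled. Steps were tested on simulated data. Alternatives used DESeq2 1.42.0, limma voom, other scaling, no filter, fewer libraries and replicate blocks.

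The 34 genes and all lists were chosen with earlier results of these data known. All 34 are named. Of 78 other genes of the pathway, the 3 with the smallest p per comparison among those called are named, with Apoe, Fasn, Scd2, Acly and Tmem97. The labels do not say what replicate numbers mark. Deviations from group means correlated at 0.100 to 0.261 in all 6 same-numbered pairs of a treatment, so they were taken as pairs. No library was a copy of another of its group, since chi-square over degrees of freedom was 45.4 to 126. Limits for counts of 0 cover counting error only.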

Additional observations from a re-analysis of the deposited data

How the results depend on the processing

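No call of a named gene changed direction in any alternative. Of the 34 genes, between populations under anti-PD-1 (2 reported), 0 passed with no filter, 0 without the anti-PD-1 libraries numbered 2 and 4 with the replicate block of pairs. Leaving out 1 library gave 0 to 2. In the mean of both treatments (2 reported), 1 passed with no filter, 5 with DESeq2, 0 without the anti-PD-1 libraries numbered 2 and 10 with the replicate block of pairs, and leaving out 1 library gave 0 to 3. Under isotype (0 reported), 1 passed with DESeq2, 1 with the replicate block of pairs and 1 with a block of the number over all groups. For treatment in asGM1-negative cells (19 reported), 12 passed without the anti-PD-1 libraries numbered 2, and leaving out 1 library gave 10 to 19. The cause of these shifts was not tested. Fits that leave libraries out also hold fewer of them, and the 2 cannot be told apart. For treatment in asGM1-positive cells (17 reported) alternatives gave 12 to 20, and for the mean of both populations (22 reported) 18 to 25. The lowest came with pairs summed, a setting chosen after seeing the data, where Hsd17b7, Dhcr7, Srebf1 and Mylip did not pass (edgeR adjusted p = 0.0785 to 0.129). For treatment the numbers do not pair libraries across antibodies, and a block of the number over all groups gave 18, 17 and 23 calls in asGM1-negative cells, asGM1-positive cells and their mean. The interaction called none of the 34 genes in any alternative, while over all genes it called 0 with edgeR, 5 with the replicate block of pairs and 136 with DESeq2.

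With 3 libraries a group, small changes may go undetected. Low genes such as Nr1h3, at 0.219 to 1.76 CPM, had standard errors near 0.70 on the log2 scale.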

Other observations

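Of 6 oxysterol genes, 3 passed with anti-PD-1 in the mean of both populations (background 18.1%), named here after their values were seen. This mean counts both libraries of a pair as separate. With pairs summed, 6.72% of all tested genes passed, and calls on these 3 are not given. Gpr183, a receptor for oxysterols that guides lymphocytes, averaged 201 ± 20.7 CPM with anti-PD-1 against 155 ± 35.2 CPM with isotype in asGM1-positive cells (SD, n = 3 each), and 319 ± 24.3 CPM with anti-PD-1 against 172 ± 35.1 CPM with isotype in asGM1-negative cells. It was higher in the mean (0.63 ± 0.13 on the log2 scale, edgeR adjusted p = 0.00504). Sult2b1, a sulfotransferase of sterols, was higher as well (1.12 ± 0.23, edgeR adjusted p = 0.00661). Ch25h, which makes an oxysterol that holds SREBP back, was lower (-2.17 ± 0.53, edgeR adjusted p = 0.0150) but low throughout, at 0.192 to 0.749 CPM with anti-PD-1 against 1.47 to 3.47 CPM with isotype in asGM1-positive cells.

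Abca1 was lowest in the library numbered 2 in 3 of the 4 groups, at 0.733 CPM in anti-PD-1 asGM1-positive, 0.625 CPM in isotype asGM1-positive and 0.809 CPM in isotype asGM1-negative cells. This order was picked after the values were seen and was not tested. The numbers do not pair libraries across antibodies, and both isotype libraries belong to the same pair.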
